A study of Saccharomyces cerevisiae with 12 samples.

Results

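The genes described here are 35 nuclear genes of budding yeast for aminoacyl-tRNA synthetases, taken from a fixed list of gene identifiers. The list groups genes by function, and it was chosen with earlier results of these data known. The first 21 form the cytosolic class, which is 20 genes for cytosolic synthetases or their subunits plus ARC1, and the other 14 form the mitochondrial class. All 35 were among the 6697 genes of the deposited count table, and all 35 were among the 5719 genes that passed the filter on low counts. The study counted ribosome footprints, the pieces of mRNA left over after nuclease digestion because a ribosome covers them, in 12 libraries of W303 Ade+ yeast. In both strains the red fluorescent protein mCherry was fused to Ded1, a DEAD-box RNA helicase that acts when translation starts. One strain had the genotype Ded1_IDRm-mCherry and is called IDRm, and the other had Ded1-mCherry and is called WT. Cultures grown at 30 °C spent 10 min at 30, 40 or 42 °C before harvest, so there were 6 groups with 2 libraries each. The labels do not spell out the IDRm change and do not say whether a strain is 1 clone. No untagged strain was among the samples. Replicates trace back to duplicate pre-cultures, and each main culture supplied all 3 temperatures, so the p-values treat as independent some libraries that share a culture.

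Aminoacyl-tRNA synthetases attach each amino acid to its tRNA, the step that decides which amino acid a codon stands for. Yeast charges tRNA in 2 places. Cytosolic enzymes serve the translation of nuclear genes, and a separate set of nuclear-encoded enzymes is imported into mitochondria and serves the few proteins made there. Some genes serve both compartments: ALA1, GRS1, HTS1 and VAS1 each encode a cytosolic and a mitochondrial form, by starting translation at different codons. ARC1 encodes a tRNA-binding cofactor that holds the methionyl and glutamyl enzymes, made by MES1 and GUS1, in 1 complex. Transcription of several amino acid genes is driven by Gcn4, whose own mRNA is controlled by upstream reading frames. The RNA-binding protein Puf3 binds the ends of many mRNAs for mitochondrial proteins.

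The sequences below show where the classes differ before any footprint is counted. In all, 6 short motifs were searched, and 5571 tested nuclear genes with an R64 annotation served as the comparison. The letters TGTANATA, the core bound by Puf3, were searched on the coding strand in the 150 bases after the stop codon. They were present in 14 of 14 mitochondrial genes (100%), in 2 of 21 cytosolic genes (9.52%) and in 13.2% of all genes. A match is given as a description of the letters, not as a bound site. One match of each mitochondrial gene is shown with the 8 letters of the core in capitals, 5′ to 3′ on the coding strand, from the RefSeq R64 assembly.
MSD1, chrXVI:357730-357759, plus strand: taggtttttctTGTAAATAttatacctatt
MSE1, chrXV:265113-265142, plus strand: caatagggtcaTGTAAATAcgtcatataca
MSF1, chrXVI:658968-658997, plus strand: tttaccgcagcTGTATATAtcttgtaaata
MSK1, chrXIV:490131-490160, plus strand: gccaatgctttTGTAAATAaatcagacata
MSM1, chrVII:840787-840816, minus strand: acttactgcacTGTAAATAttaacttaagt
MSR1, chrVIII:284758-284787, minus strand: atttataaacaTGTAAATAgaagaaagttt
MST1, chrXI:77214-77243, minus strand: caaacttgcccTGTAAATAaaaggatacga
MSW1, chrIV:1005165-1005194, plus strand: tgcaaacgcaaTGTAAATAataatacagtt
MSY1, chrXVI:366497-366526, plus strand: atgcactgactTGTAAATAagattataaac
ISM1, chrXVI:475957-475986, minus strand: tgtacctttccTGTATATAaagaatgccaa
NAM2, chrXII:882016-882045, minus strand: ccactagtgctTGTAAATAgttaaatatta
SLM5, chrIII:160634-160663, minus strand: aagaccatcctTGTAAATAtaataatgtag
DIA4, chrVIII:129125-129154, plus strand: taagaaaatctTGTAAATAtgtaatcttat
AIM10, chrV:332328-332357, plus strand: tcttgtatacaTGTATATAacaccaaaata
The 2 cytosolic genes with these letters were GLN4 and GUS1. Both had the form TGTATATA, as in the MSF1, ISM1 and AIM10 matches shown.

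In promoters the pattern was the other way round. The window ran from 250 bases before to 50 bases after the start codon, and both strands were searched. The Gcn4 core TGACTC was present in 9 of 21 cytosolic genes (42.9%), in 0 of 14 mitochondrial genes and in 8.2% of all genes. The letters AAAATTTT, the core of the RRPE element of ribosome biogenesis genes, were present in 12 of 21 cytosolic genes (57.1%), in 0 of 14 mitochondrial genes and in 9.37% of all genes. Of the other motifs, GATGAG (the PAC core) was present in 6 cytosolic genes and 1 mitochondrial gene, against 20.1% of all genes. The stress response element core AGGGG was present in 1 cytosolic and 4 mitochondrial genes, against 21.9% of all genes, and the Hsf1 pair TTCNNGAA in 6 cytosolic and 5 mitochondrial genes, against 13%. AAAATTTT and TTCNNGAA read the same on both strands, and no matches of different promoter motifs overlapped in any of the 35 genes. Matches in genes with large or opposite changes are shown next, with the motif letters in capitals, first TGACTC or its reverse complement GAGTCA and then AAAATTTT.
ALA1, chrXV:949139-949168, minus strand: gattaaggaactTGACTCtttctttcaaga
ILS1, chrII:84346-84375, minus strand: tcgaaacaatgaTGACTCttaagcatgaaa
KRS1, chrIV:525294-525323, plus strand: tgaatgatgaaaTGACTCttaatgaacttc
YHR020W, chrVIII:143802-143831, plus strand: taagcgatgcttGAGTCActgaatgtcttg
ARC1, chrVII:307419-307448, plus strand: atagagtttcaaGAGTCAatgtccgatctc
DED81, chrVIII:143724-143753, minus strand: cgcaaaagtgaAAAATTTTccatcgtgcat
FRS2, chrVI:95230-95259, minus strand: aacagaaaaaaAAAATTTTtctgtttttct
ILS1, chrII:84398-84427, minus strand: catgatgacgaAAAATTTTttttttttttg
ARC1, chrVII:307326-307355, plus strand: caagagataagAAAATTTTtcagtcatatg
The ARC1 match to GAGTCA ended just before its start codon. Some counted matches lay inside the coding sequence: TGACTC in GLN4, AGGGG in NAM2 and TTCNNGAA in DIA4. In ALA1, TGACTC (from base -47) and TTCNNGAA (from base -36) lay between the annotated ATG and the upstream in-frame ACG codons given below. The GATGAG matches of THS1 and WRS1 spanned the start codon. The promoter of ALA1 had the Gcn4 core but not AAAATTTT, and that of CDC60 had neither.

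**Figure D1:**
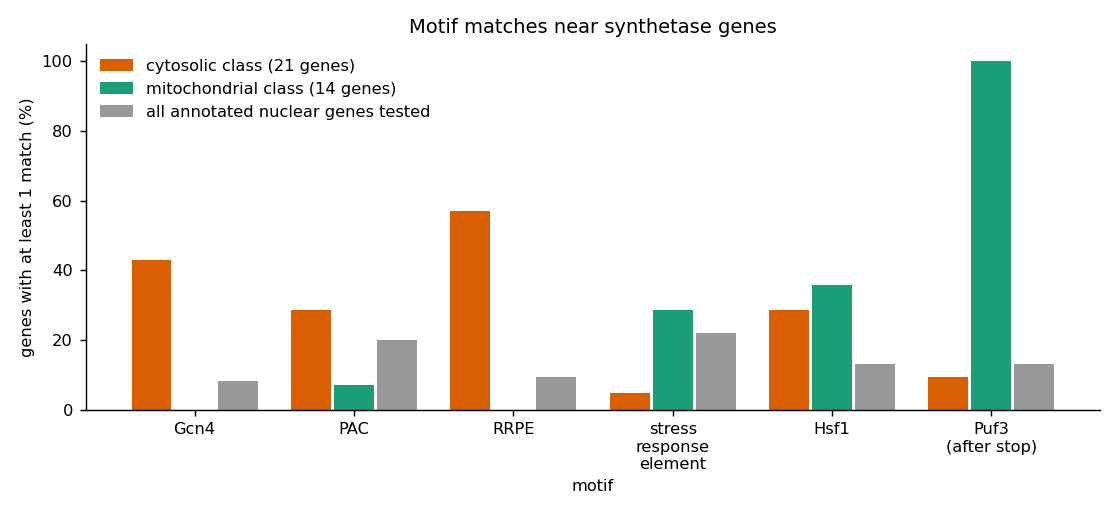
Percentage of genes with at least 1 match to each motif (y axis) for the 21 cytosolic genes, the 14 mitochondrial genes and all 5571 annotated nuclear genes tested, with 1 group of bars per motif (x axis). Matches to TGTANATA after the stop codon were present in 100% of the mitochondrial class, and matches to the Gcn4 and RRPE cores in 42.9% and 57.1% of the cytosolic class and in 0 mitochondrial genes.

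The leaders of ALA1 and GRS1 hold the near-cognate codons from which their mitochondrial forms are known to start. Read in frame upstream of the annotated ATG, ALA1 had no stop codon for 27 codons and GRS1 for 56 codons, against a median of 9 over all genes. Open frames longer than that of ALA1 were also present in VAS1 and YDR341C (38 codons), FRS2 and AIM10 (33) and KRS1 (28). ALA1 had neighbouring ACG codons at codons -25 and -24, counted back from the ATG, and GRS1 had a TTG codon at -23. Such codons were in frame in other genes too, for example ACG in FRS2 at -18 and TTG in KRS1 at -16. The near-cognate codon is in capitals.
ALA1, chrXV:949167-949196, minus strand: atttaagacaagACGacgtcaactaccgga
GRS1, chrII:483419-483448, minus strand: tttcaagaaaaaTTGtcgttcttcaatatc
None of the 35 genes shared a stretch of 28 bases with another coding sequence, none overlapped another coding gene, and each had 1 coding exon. Coding lengths ran from 1131 to 3315 bases in the cytosolic class and from 1140 to 3009 bases in the mitochondrial class.

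Libraries held 3429950 to 7851819 counts. Levels are given as CPM, counts per 1000000 on library sizes scaled by edgeR. Without a recorded spike-in, levels are relative to the other footprints of a library. Without RNA sequencing of the same cultures, a change in mRNA cannot be told apart from a change in translation. Fewer cells and less RNA per cell cannot be told apart either. The WT libraries at 30 °C differed in heat genes: HSP26, a small heat shock protein gene, had 27.7 and 114.9 CPM in them and 54.99 and 79.2 CPM in the IDRm libraries at 30 °C. DED1, the gene altered in IDRm and tagged in both strains, had 1436 and 1426 CPM in IDRm and 1381 and 1427 CPM in WT at 30 °C. At 40 °C DED1 had 1052 and 1098 CPM in IDRm and 1320 and 1314 CPM in WT. Gene counts cannot show the IDRm change itself. The a-cell genes STE2 and STE6 were read in every library. Of the alpha-cell genes, MF(ALPHA)1 did not exceed 0.887 CPM and MF(ALPHA)2 did not exceed 1.311 CPM, but STE3 was higher in heat. At 30 °C STE3 had 2.465 and 3.021 CPM in IDRm and 0.973 and 0.541 CPM in WT. At 40 °C it had 10.02 and 13.19 CPM in IDRm and 11.69 and 14.23 CPM in WT. At 42 °C it had 13.76 and 11.53 CPM in IDRm and 8.87 and 7.697 CPM in WT. The cause was not tested.

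The classes differed widely in level. Per kb of coding sequence, the cytosolic genes had 184.2 to 774.2 CPM per kb in WT at 30 °C, with a median of 386.1, and the mitochondrial genes had 7.19 to 17.1 CPM per kb, with a median of 11.3. The lowest cytosolic gene was GLN4, for glutaminyl-tRNA synthetase, and the highest was KRS1, for lysyl-tRNA synthetase. The ranges of the classes did not meet in any of the 6 groups. Among the mitochondrial genes at 30 °C in WT, MSW1 for tryptophan was highest per kb and ISM1 for isoleucine lowest. Counts per gene and library were 394 to 12452 in the cytosolic class but 17 to 264 in the mitochondrial class, and standard errors of log2 changes were accordingly larger in the mitochondrial class.

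Summed over the 21 cytosolic genes, the share of all footprints was 1.95% and 1.94% in IDRm and 1.91% and 1.91% in WT at 30 °C. At 40 °C it was 0.915% and 0.905% in IDRm and 1.02% and 1.07% in WT. At 42 °C it was 1.36% and 1.35% in IDRm and 1.57% and 1.504% in WT. The share was thus lowest at 40 °C and intermediate at 42 °C in both strains, and at 40 and 42 °C every IDRm library lay below every WT library. The 14 mitochondrial genes together had 0.0238% to 0.0267% of the footprints over the 6 IDRm libraries and 0.0242% to 0.0284% over the 6 WT libraries. The mitochondrial sum at 40 °C was 0.0252% and 0.0238% in IDRm and 0.0242% in both WT libraries. In WT both 40 °C libraries lay below the other 4, which had 0.0251% to 0.0284%, while in IDRm the 40 and 42 °C libraries overlapped and none exceeded a 30 °C library. These shares use library totals without edgeR scaling. On the CPM scale the cytosolic order was the same. The mitochondrial sum at 40 °C was then 278.7 and 273.9 CPM in IDRm, above 243.7 and 256.6 CPM at 30 °C. In WT it was 267.8 and 271.1 CPM at 40 °C, against 268.2 and 262 CPM at 30 °C. At 42 °C it was 232.9 and 240.7 CPM in IDRm and 249.8 and 233 CPM in WT. The lower mitochondrial share at 40 °C in WT was thus not seen with scaling.

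**Figure D2:**
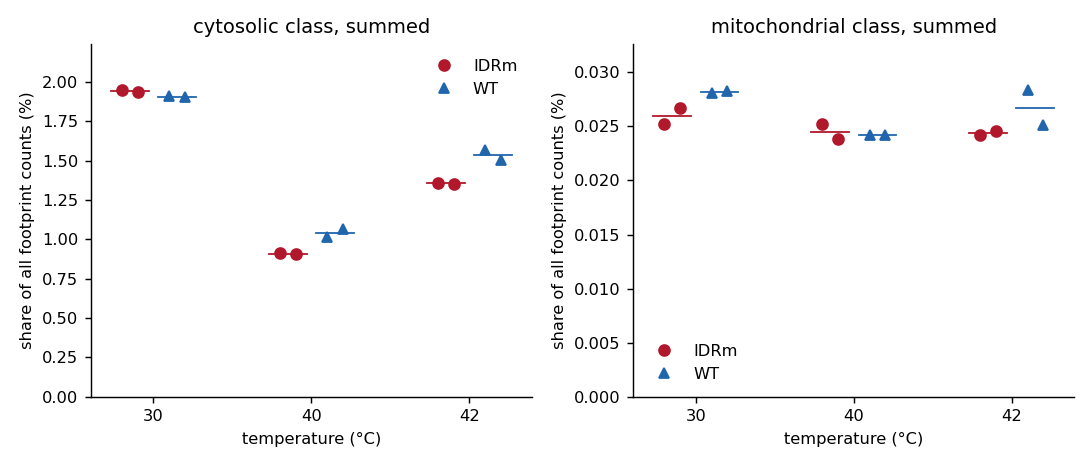
Share of all footprint counts in percent (y axis) summed over the 21 cytosolic genes (left) and the 14 mitochondrial genes (right) at 30, 40 and 42 °C (x axis). Points are libraries, lines are group means, IDRm is drawn left of WT, and the cytosolic share at 40 °C is 0.905% to 0.915% in IDRm and 1.02% to 1.07% in WT.

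The first comparison asks how the genes responded to 10 min at 40 °C. In IDRm, 19 of 21 cytosolic genes were lower at 40 °C than at 30 °C, 1 was higher and 1 was not called, by edgeR's quasi-likelihood test at a Benjamini-Hochberg adjusted p of at most 0.05. The background was high, since 39.9% of all tested genes were called lower and 37.4% higher. The median log2 fold change in IDRm was -0.82 over the cytosolic class and 0.01 over all tested genes. Of the 14 mitochondrial genes 5 were higher, 4 were lower and 5 were not called in IDRm, with a median of -0.01. These are 35.7% higher and 28.6% lower. In WT the cytosolic class likewise had 19 lower, 1 higher and 1 not called, with a median of -0.67, against 39.5% lower, 36.1% higher and a median of -0.02 over all genes. The mitochondrial class in WT had 5 higher, 5 lower and 4 not called, with a median of -0.10. At 35.7% in each direction this is near the shares over all genes, and the IDRm share called higher is near its background too. Scaling by library size alone moves the median of all genes to -0.22 in IDRm and -0.26 in WT. With that scaling the mitochondrial split was 2 higher and 6 lower in IDRm and 1 higher and 7 lower in WT, and the cytosolic split was 0 higher and 20 lower in IDRm and 0 higher and 19 lower in WT. Without WT 30 °C replicate 2, the library with more HSP26, the cytosolic counts in WT were still 1 higher and 19 lower, and the mitochondrial counts were 4 higher and 3 lower. Without WT 30 °C replicate 1 they were 2 higher and 4 lower, and without WT 40 °C replicate 2 they were 3 higher and 3 lower. DESeq2 called 5 of the 14 mitochondrial genes in IDRm and 5 in WT.

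**Figure D3:**
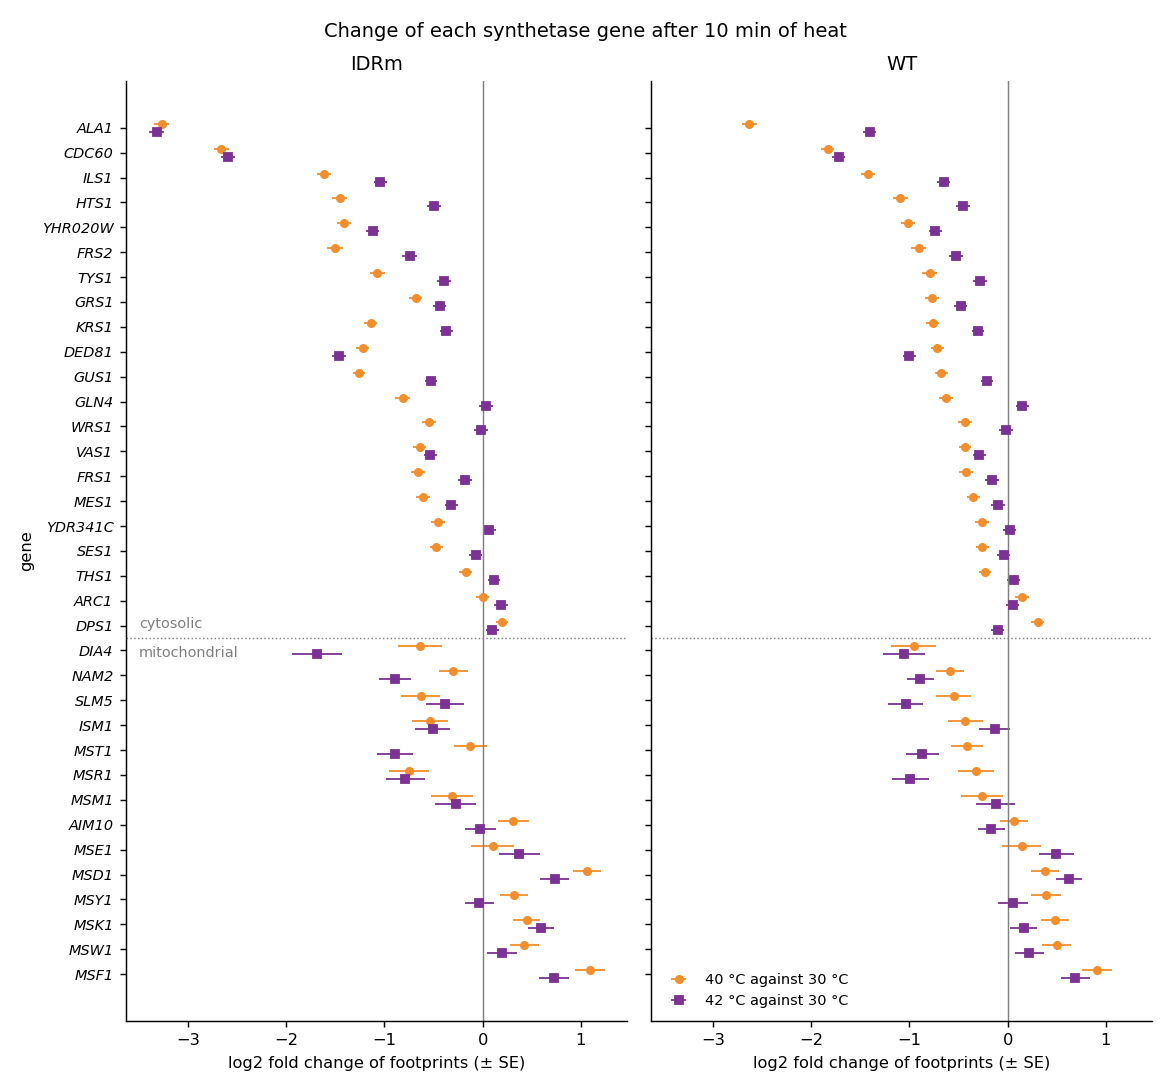
log2 fold change of footprints (x axis, ± SE) of each of the 35 genes (y axis) at 40 °C and at 42 °C against 30 °C, in IDRm (left) and WT (right), with the cytosolic class above the dotted line. At 40 °C ALA1 and CDC60 lie farthest to the left in both panels, at -3.27 and -2.66 in IDRm and at -2.63 and -1.84 in WT.

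ALA1 (YOR335C, chromosome XV, 946233 to 949109, minus strand), the alanyl-tRNA synthetase gene for both compartments, had the lowest change of the 35 genes at 40 °C in both strains and at 42 °C in IDRm. At 42 °C in WT, CDC60 was lower. At 30 °C ALA1 had 988 and 942.1 CPM in IDRm and 1011 and 984.9 CPM in WT. At 40 °C it had 102 and 98.03 CPM in IDRm and 155.6 and 165.7 CPM in WT. At 42 °C it had 91.8 and 101.6 CPM in IDRm, against 390.7 and 361.3 CPM in WT. No heated library reached the level of any 30 °C library, and the strains separated at both heat steps. With 2 libraries a group, such separation was common, here and for the genes below. Between 40 and 30 °C 88.9% of all tested genes had no overlap in IDRm and 87% in WT. Between 42 and 30 °C it was 87.7% in IDRm and 78.6% in WT. Between the strains it was 63.2% at 40 °C and 69.9% at 42 °C. In IDRm the ALA1 change was -3.27 ± 0.08 on the log2 scale (± SE) at 40 °C (9.65-fold lower, adjusted p = 1.15e-26) and -3.32 ± 0.08 at 42 °C (9.99-fold lower, adjusted p = 2.23e-26). In WT it was -2.63 ± 0.08 at 40 °C (6.20-fold lower, adjusted p = 1.14e-24) and -1.41 ± 0.07 at 42 °C (2.65-fold lower, adjusted p = 6.08e-18). From 40 to 42 °C the ALA1 change was -0.05 ± 0.09 in IDRm (adjusted p = 0.661) and 1.23 ± 0.08 in WT (adjusted p = 1.95e-15).

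CDC60 (YPL160W, chromosome XVI, 246990 to 250262, plus strand), for cytosolic leucyl-tRNA synthetase, followed. At 30 °C it had 1216 and 1214 CPM in IDRm and 1262 and 1177 CPM in WT. At 40 °C the levels of CDC60 were 186.6 and 197.6 CPM in IDRm and 341.3 and 342.7 CPM in WT. At 42 °C they were 194.9 and 207.6 CPM in IDRm and 388.4 and 350.1 CPM in WT. CDC60 was therefore low at both heat steps in both strains, and lower in IDRm at each. Its change in IDRm was -2.66 ± 0.07 at 40 °C (6.33-fold lower) and -2.60 ± 0.07 at 42 °C (6.04-fold lower). In WT the change was -1.84 ± 0.07 at 40 °C (3.57-fold lower) and -1.72 ± 0.07 at 42 °C (3.30-fold lower). All 4 were called.

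ILS1, for cytosolic isoleucyl-tRNA synthetase, came next after CDC60 in WT at 40 °C. It had 1231 and 1266 CPM in IDRm and 1169 and 1101 CPM in WT at 30 °C, then 413.5 and 401.8 CPM in IDRm and 400.9 and 444.8 CPM in WT at 40 °C. At 42 °C it had 602.8 and 609.5 CPM in IDRm and 744.3 and 703.9 CPM in WT. The strains thus overlapped at 40 °C and separated at 42 °C. The change in IDRm was -1.62 ± 0.07 at 40 °C and -1.04 ± 0.07 at 42 °C, and in WT it was -1.42 ± 0.07 and -0.65 ± 0.07 at those temperatures. Next in WT at 40 °C came HTS1 for histidine, at -1.09 ± 0.08, and YHR020W for proline, at -1.02 ± 0.07.

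A few cytosolic genes did not fall. DPS1 (YLL018C, chromosome XII, 109902 to 111575, minus strand), for cytosolic aspartyl-tRNA synthetase, had 1114 and 1104 CPM in IDRm and 965 and 977.8 CPM in WT at 30 °C. At 40 °C it had 1225 and 1319 CPM in IDRm and 1176 and 1226 CPM in WT, and at 42 °C 1154 and 1224 CPM in IDRm and 873.4 and 939.7 CPM in WT. Both strains were above their 30 °C libraries at 40 °C. DPS1 rose by 0.20 ± 0.07 at 40 °C in IDRm (adjusted p = 0.0077) and by 0.31 ± 0.07 in WT (adjusted p = 0.000116), while scaling by library size alone gave -0.03 in IDRm and 0.06 in WT, neither called. The IDRm call was also lost without IDRm 30 °C replicate 2 (0.19) and without IDRm 40 °C replicate 2 (0.14). DPS1 was the cytosolic gene called higher in both strains. At 42 °C against 40 °C it fell by 0.41 in WT, against the direction of most of its class.

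ARC1 (YGL105W, chromosome VII, 307437 to 308567, plus strand), the cofactor, had 835.9 and 817.4 CPM in IDRm and 822 and 830.4 CPM in WT at 30 °C. At 40 °C it had 804.9 and 851.2 CPM in IDRm and 899.3 and 928.5 CPM in WT, and at 42 °C 934 and 950.4 CPM in IDRm and 799 and 913.6 CPM in WT. The ARC1 change at 40 °C was 0.002 ± 0.07 in IDRm (adjusted p = 0.974) and 0.15 ± 0.07 in WT (adjusted p = 0.0518). Scaling by library size alone gave ARC1 -0.23 in IDRm, called lower, and -0.10 in WT, not called. In WT ARC1 was called higher with the DESeq2 size factors (0.18) and with a fit of the compared groups alone (0.20). Its partners in the complex changed otherwise: at 40 °C the change of GUS1 was -1.26 ± 0.06 in IDRm and -0.67 ± 0.06 in WT, and that of MES1 -0.61 ± 0.07 in IDRm and -0.35 ± 0.07 in WT, all called. THS1, for cytosolic threonyl-tRNA synthetase, changed little. It had 1059 and 1071 CPM in IDRm and 1081 and 1026 CPM in WT at 30 °C, and 951.9 and 937 CPM in IDRm and 873.6 and 923 CPM in WT at 40 °C. At 42 °C it had 1159 and 1151 CPM in IDRm and 1114 and 1083 CPM in WT. In both strains the 40 °C libraries of THS1 lay below those at 30 °C, with changes of -0.17 ± 0.06 in IDRm (adjusted p = 0.0151, a call lost under 4 of 18 other settings) and -0.23 ± 0.06 in WT (adjusted p = 0.00179).

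**Figure D4:**
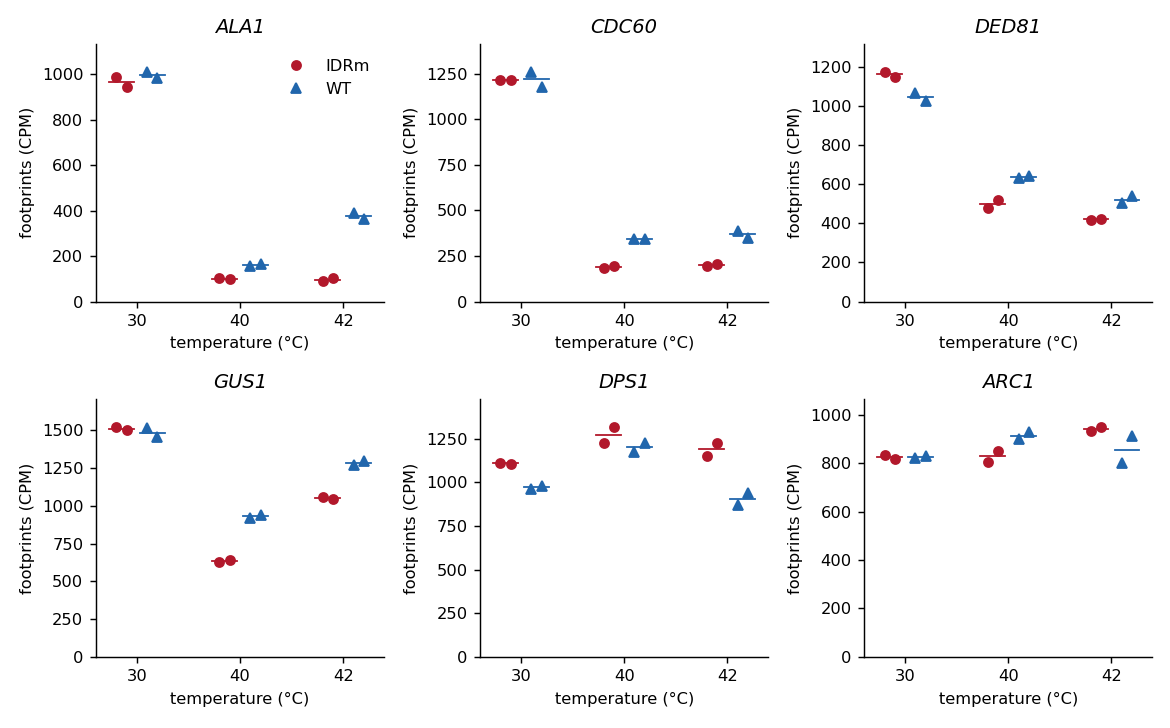
Footprint levels in CPM (y axis, from 0) of 6 cytosolic genes at 30, 40 and 42 °C (x axis), with a point per library, lines at group means and IDRm left of WT. ALA1 and CDC60 drop in every heated library and lie lower in IDRm than in WT, whereas DPS1 and ARC1 stay between 799 and 1319 CPM in all 12 libraries.

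The cytosolic phenylalanyl enzyme is built from a beta subunit and an alpha subunit, encoded by FRS1 and FRS2. FRS1 had 600.2 and 603 CPM in IDRm and 646.4 and 561.9 CPM in WT at 30 °C, 384.9 and 379.7 CPM in IDRm and 439.6 and 460.3 CPM in WT at 40 °C, and 532 and 534.1 CPM in IDRm and 517.3 and 566.1 CPM in WT at 42 °C. Its libraries were lowest at 40 °C in both strains. FRS2 (YFL022C, chromosome VI, 93499 to 95010, minus strand) had 508 and 451.8 CPM in IDRm and 505.6 and 488.9 CPM in WT at 30 °C. At 40 °C it had 172.4 and 165.7 CPM in IDRm and 259.2 and 272 CPM in WT, and at 42 °C 288 and 285.7 CPM in IDRm and 326.9 and 366.9 CPM in WT. FRS2 fell farther than FRS1 at 40 °C in each strain, with -1.51 ± 0.08 and -0.65 ± 0.07 in IDRm and -0.91 ± 0.08 and -0.43 ± 0.07 in WT. The difference between these 2 genes was not tested. SES1, for cytosolic seryl-tRNA synthetase, had changes at 40 °C of -0.47 ± 0.07 in IDRm and -0.26 ± 0.07 in WT, and TYS1, for cytosolic tyrosyl-tRNA synthetase, had -1.07 ± 0.08 in IDRm and -0.79 ± 0.08 in WT, all called. The 4 genes named above as serving both compartments were all called lower at 40 °C in both strains, from -2.63 for ALA1 to -0.43 for VAS1 in WT.

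Among the mitochondrial genes, MSF1 (YPR047W, chromosome XVI, 657529 to 658938, plus strand), for mitochondrial phenylalanyl-tRNA synthetase, had the highest change of the 35 genes at 40 °C in both strains. It had 13.8 and 15.8 CPM in IDRm and 15.2 and 16.2 CPM in WT at 30 °C, then 30.3 and 33.1 CPM in IDRm and 29.2 and 29.3 CPM in WT at 40 °C. At 42 °C MSF1 had 22.5 and 26.9 CPM in IDRm and 26.8 and 22.9 CPM in WT. All heated libraries lay above all 30 °C libraries. MSF1 rose at 40 °C by 1.09 ± 0.15 in IDRm (2.13-fold, adjusted p = 9.6e-08) and by 0.91 ± 0.15 in WT (1.88-fold, adjusted p = 2.55e-06).

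MSW1, for mitochondrial tryptophanyl-tRNA synthetase, had 17.8 and 18.8 CPM in IDRm and 17.3 and 21.6 CPM in WT at 30 °C. At 40 °C it had 24.9 and 24.4 CPM in IDRm and 25.6 and 27.4 CPM in WT, and at 42 °C 19.7 and 22.6 CPM in IDRm and 22.5 and 21.2 CPM in WT. Its rise at 40 °C was 0.43 ± 0.15 in IDRm (adjusted p = 0.0118) and 0.50 ± 0.15 in WT (adjusted p = 0.00312). The MSW1 call in WT was lost without WT 30 °C replicate 1 (0.30), and that in IDRm without IDRm 30 °C replicate 1 (0.39) or IDRm 40 °C replicate 1 (0.41). Scaling by library size alone gave MSW1 0.20 in IDRm and 0.26 in WT, neither called. MSK1, for mitochondrial lysyl-tRNA synthetase, had 24.8 and 24.2 CPM in IDRm and 22.1 and 18.7 CPM in WT at 30 °C. At 40 °C it had 33.5 and 33.3 CPM in IDRm and 31.2 and 27.6 CPM in WT, and at 42 °C 37.8 and 36.3 CPM in IDRm and 24.98 and 21.2 CPM in WT. At 40 °C MSK1 was above its 30 °C libraries in both strains, by 0.45 ± 0.14 in IDRm (adjusted p = 0.00361) and 0.48 ± 0.14 in WT (adjusted p = 0.00282), and at 42 °C it lay above them in IDRm, by 0.60 ± 0.13 (adjusted p = 0.000159). With library size alone the MSK1 values at 40 °C were 0.22 in IDRm and 0.25 in WT, neither called. MSY1 for tyrosine and MSD1 for aspartate were the other mitochondrial genes called higher at 40 °C in both strains. The MSY1 call was lost under 7 of 18 other settings in IDRm and 5 of 18 in WT, and the MSD1 call under 4 of 18 in WT.

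DIA4 (YHR011W, chromosome VIII, 127780 to 129120, plus strand), which encodes the probable mitochondrial seryl-tRNA synthetase, had the lowest mitochondrial change in WT. It had 11.8 and 16.1 CPM in IDRm and 15.6 and 11.6 CPM in WT at 30 °C, then 8.56 and 9.46 CPM in IDRm and 6.40 and 7.95 CPM in WT at 40 °C. At 42 °C it had 3.71 and 5.05 CPM in IDRm and 6.51 and 7.23 CPM in WT. Each heated library was below each 30 °C library. The change in IDRm was -0.64 ± 0.22 at 40 °C (adjusted p = 0.00999) and -1.68 ± 0.26 at 42 °C (3.21-fold lower, adjusted p = 6.7e-07). The IDRm call for DIA4 at 40 °C was lost without IDRm 30 °C replicate 2 (-0.39), without IDRm 40 °C replicate 1 (-0.57) and under DESeq2 (-0.58). In WT the DIA4 change was -0.96 ± 0.23 at 40 °C (1.94-fold lower, adjusted p = 0.000377) and -1.06 ± 0.22 at 42 °C (adjusted p = 8.83e-05).

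NAM2, for mitochondrial leucyl-tRNA synthetase, an enzyme that also takes part in the splicing of mitochondrial introns, had 26.6 and 26.2 CPM in IDRm and 32.1 and 29.5 CPM in WT at 30 °C. At 40 °C it had 22.7 and 20.15 CPM in IDRm and 23.7 and 18.4 CPM in WT, and at 42 °C 13.3 and 15.1 CPM in IDRm and 17.2 and 16.3 CPM in WT. The NAM2 means were lower at each higher temperature in both strains, though not every step passed the test. Its change in IDRm was -0.30 ± 0.15 at 40 °C (adjusted p = 0.0681) and -0.89 ± 0.16 at 42 °C (adjusted p = 8.63e-06). In WT it was -0.59 ± 0.14 at 40 °C (adjusted p = 0.000533) and -0.89 ± 0.14 at 42 °C (adjusted p = 2.09e-06). Without WT 40 °C replicate 2 the WT call for NAM2 at 40 °C was lost (-0.40). SLM5, for mitochondrial asparaginyl-tRNA synthetase, had 14.8 and 13.9 CPM in IDRm and 18.6 and 17.9 CPM in WT at 30 °C. At 40 °C it had 9.78 and 8.71 CPM in IDRm and 11.4 and 13.4 CPM in WT, and at 42 °C 11.1 and 10.8 CPM in IDRm and 10.1 and 7.23 CPM in WT. The SLM5 change at 40 °C was -0.63 ± 0.20 in IDRm (adjusted p = 0.00552) and -0.55 ± 0.18 in WT (adjusted p = 0.00653), and the call was lost under 2 of 18 other settings in IDRm and 3 of 18 in WT.

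Since 15 pairs can be formed of a cytosolic and a mitochondrial gene for the same amino acid, the 2 genes of a pair were set side by side. The mitochondrial gene MSF1 enters 2 of them, with FRS1 and with FRS2. At 40 °C the cytosolic gene had the lower change in 13 of 15 pairs in IDRm and in 12 of 15 pairs in WT. The median difference of the log2 changes, cytosolic minus mitochondrial, was -1.08 in IDRm and -0.94 in WT. The largest difference was between FRS2 and MSF1, at -2.60 ± 0.17 in IDRm and -1.82 ± 0.17 in WT, with an SE that treats the 2 genes as independent. The smallest in WT was between YDR341C and MSR1, the cytosolic and mitochondrial arginyl enzymes, at 0.06 ± 0.20. YDR341C had 697.5 and 689.3 CPM in IDRm and 638.7 and 629.3 CPM in WT at 30 °C, 497.6 and 515.1 CPM in IDRm and 496.7 and 560.7 CPM in WT at 40 °C, and 711.2 and 743.8 CPM in IDRm and 638.9 and 648.9 CPM in WT at 42 °C. MSR1 had 18.0 and 14.9 CPM in IDRm and 16.7 and 16.2 CPM in WT at 30 °C, 10.0 and 9.46 CPM in IDRm and 14.8 and 11.9 CPM in WT at 40 °C, and 10.5 and 8.41 CPM in IDRm and 9.17 and 6.997 CPM in WT at 42 °C. At 42 °C YDR341C was back at or above its 30 °C level while MSR1 was not, with changes of 0.02 ± 0.07 and -0.99 ± 0.19 in WT.

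**Figure D5:**
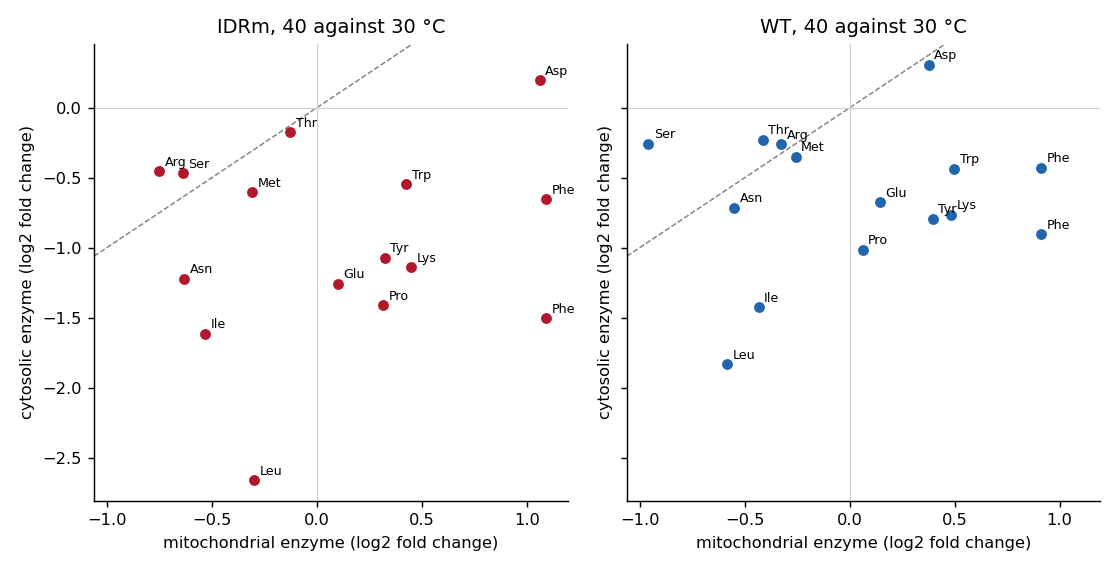
log2 fold change at 40 °C against 30 °C of the cytosolic gene (y axis) and of the mitochondrial gene (x axis) for the same amino acid, in IDRm (left) and WT (right), 1 point per pair with equal changes on the dashed line. In IDRm 13 of 15 pairs and in WT 12 of 15 pairs lie below the line, with the leucine and phenylalanine pairs among the farthest from it.

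At 42 °C against 30 °C fewer cytosolic genes were called. In IDRm 14 of 21 were lower and 1 was higher, with a median of -0.40, against 36.7% lower and 36.8% higher over all genes and a median of 0.02. The gene called higher was ARC1, at 0.19 ± 0.07 (adjusted p = 0.0133, a call lost under 6 of 18 other settings). In WT 13 were lower and 0 were higher, with a median of -0.28, against 33.6% lower and 30% higher over all genes and a median of -0.03. The 8 genes not called in WT included GLN4, WRS1, THS1 and YDR341C. The mitochondrial class had 3 higher and 5 lower both in IDRm and in WT, with medians of -0.16 and -0.13.

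Set against 40 °C, the 42 °C libraries had more footprints on most cytosolic genes. In IDRm 16 of 21 were higher at 42 °C and 1 was lower, with a median of 0.40, against 27.3% higher and 27% lower over all genes, and the lower gene was DED81. In WT 16 were higher and 2 were lower, with a median of 0.29, against 29.8% higher and 29.4% lower over all genes. The 2 lower genes were DPS1 and DED81. The mitochondrial class had 0 higher and 6 lower in IDRm and 0 higher and 4 lower in WT, with medians of -0.28 in IDRm and -0.25 in WT. The 4 lower in WT are 28.6% of the class, near the share called lower over all genes. Without IDRm 42 °C replicate 1 the IDRm count was 0, and without WT 42 °C replicate 2 the WT count was 1. Scaling by library size alone moves the median of all genes to 0.23 in IDRm and 0.30 in WT, and it turned the split in the mitochondrial class to 1 higher and 2 lower in IDRm and 3 higher and 0 lower in WT. In the cytosolic class of WT it gave 19 higher and 0 lower. The median change of the cytosolic class minus that of the mitochondrial class was -0.80 in IDRm and -0.58 in WT at 40 °C, and -0.24 in IDRm and -0.15 in WT at 42 °C. Without WT 30 °C replicate 1 the WT values were -0.80 and -0.23.

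DED81, for cytosolic asparaginyl-tRNA synthetase, was the cytosolic gene lower at 42 °C than at 40 °C in both strains. It had 1175 and 1148 CPM in IDRm and 1065 and 1024 CPM in WT at 30 °C, 477 and 519.5 CPM in IDRm and 632.3 and 639.3 CPM in WT at 40 °C, and 418.6 and 424 CPM in IDRm and 502.6 and 540.2 CPM in WT at 42 °C. In both strains its libraries were ordered by temperature, with no overlap. Between the heat steps the change of DED81 was -0.24 ± 0.07 in IDRm (adjusted p = 0.00304) and -0.29 ± 0.07 in WT (adjusted p = 0.000382). Scaling by library size alone gave DED81 -0.03 in IDRm and 0.01 in WT, neither called, and without IDRm 40 °C replicate 2 the IDRm call was lost too (-0.18).

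The second question is whether the IDRm strain differed from WT. At 30 °C 2 of 21 cytosolic genes were higher, 0 were lower, and 1 of 14 mitochondrial genes was lower. Over all tested genes 9.58% were called higher and 6.75% lower. The 9.52% of the cytosolic class called higher and the 7.14% of the mitochondrial class called lower are near these shares. The cytosolic median was 0.02 and the mitochondrial median -0.05. KRS1, for lysyl-tRNA synthetase, had 1737 and 1708 CPM in IDRm and 1395 and 1355 CPM in WT at 30 °C, a difference of 0.33 ± 0.06 (adjusted p = 0.000484). At 40 °C KRS1 had 764.3 and 799.7 CPM in IDRm and 788.2 and 830.1 CPM in WT, which overlap, and at 42 °C it had 1338 and 1331 CPM in IDRm and 1091 and 1138 CPM in WT. The others were DPS1, at 0.19 ± 0.07 (adjusted p = 0.0443), and MSD1, for mitochondrial aspartyl-tRNA synthetase. The call of DPS1 was lost under 12 of 18 other settings and that of MSD1 under 15 of 18.

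At 40 °C 11 of 21 cytosolic genes were lower in IDRm than in WT and 0 were higher, with a median of -0.24, against 14.5% lower and 11.4% higher over all genes. Without WT 40 °C replicate 2 the count was 7. Of the 14 mitochondrial genes 0 were called by edgeR and 0 by DESeq2, 0 had an unadjusted p of at most 0.05, and their median was 0.04. At 42 °C 9 cytosolic genes were lower and 3 were higher, with a median of -0.12, against 20.7% lower and 20.4% higher over all genes. The 3 higher genes were DPS1, KRS1 and YDR341C, of which YDR341C lost its call under 8 of 18 other settings. In the mitochondrial class MSK1 was higher and MSE1 lower at 42 °C, and MSE1 lost its call under 4 of 18 other settings. With scaling by library size alone the mitochondrial split at 42 °C was 1 higher and 4 lower, and with the DESeq2 size factors it was 1 higher and 2 lower. MSK1 exceeded WT by 0.66 ± 0.13 (adjusted p = 0.000139), and DPS1 by 0.39 ± 0.07 (adjusted p = 1.35e-05).

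At 42 °C ALA1 showed the largest strain difference of the 35 genes. It was 3.90-fold lower in IDRm, at -1.96 ± 0.08 (adjusted p = 8.97e-19), which ranked 5704 of 5719 genes from the highest value down. At 40 °C the ALA1 difference was -0.69 ± 0.08 (adjusted p = 1.11e-07), and at 30 °C the difference was -0.05 ± 0.07 (adjusted p = 0.681). The CDC60 difference was -0.83 ± 0.07 at 40 °C (adjusted p = 1.69e-10) and -0.88 ± 0.07 at 42 °C (adjusted p = 1.32e-11).

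GUS1 (YGL245W, chromosome VII, 39023 to 41149, plus strand), for the glutamyl-tRNA synthetase that binds ARC1, had 1523 and 1500 CPM in IDRm and 1514 and 1453 CPM in WT at 30 °C. At 40 °C it had 625.7 and 639.5 CPM in IDRm and 917.6 and 942.1 CPM in WT, and at 42 °C 1059 and 1044 CPM in IDRm and 1272 and 1295 CPM in WT. GUS1 was level between the strains at 30 °C and separated in heat. The strain difference at 40 °C was -0.56 ± 0.06 for GUS1 (adjusted p = 3.9e-08) and -0.65 ± 0.08 for FRS2 (adjusted p = 1.59e-07). YHR020W, the gene for the cytosolic prolyl-tRNA synthetase, had 835.7 and 826.8 CPM in IDRm and 812.1 and 811.5 CPM in WT at 30 °C. At 40 °C it had 306.4 and 318 CPM in IDRm and 388.9 and 413.8 CPM in WT, and at 42 °C 360.9 and 404.3 CPM in IDRm and 486.2 and 486.8 CPM in WT. The YHR020W difference was -0.36 ± 0.07 at 40 °C (adjusted p = 0.000186) and -0.35 ± 0.07 at 42 °C (adjusted p = 0.000121).

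The difference between the strains in the response itself was tested as an interaction, the heat change in IDRm minus that in WT. From 30 to 40 °C, 8 of 21 cytosolic genes were called lower in this test and 0 higher, against 8.52% lower and 3.81% higher over all genes. These 8 genes fell farther in IDRm than in WT. The median over the cytosolic class was -0.23 and over all genes -0.01. From 30 to 42 °C the counts were 7 lower and 0 higher, against 16.1% lower and 11.4% higher, with a median of -0.11 over the class and 0.01 over all genes. Of these calls, that of HTS1 at 40 °C was lost under 6 of 18 other settings, and that of VAS1 at 42 °C under 13 of 18, among them the replicate block (-0.24, adjusted p = 0.0599). Within the cytosolic class ALA1 and CDC60 led in size at both steps: the ALA1 interaction was -0.64 ± 0.11 at 40 °C (adjusted p = 6.15e-05) and -1.91 ± 0.10 at 42 °C (adjusted p = 3.59e-15). That of CDC60 was -0.83 ± 0.10 at 40 °C (adjusted p = 3.59e-07) and -0.87 ± 0.10 at 42 °C (adjusted p = 2.8e-08). GRS1, which like ALA1 has a near-cognate start for its mitochondrial form, had an interaction of 0.09 ± 0.10 at 40 °C (adjusted p = 0.631) and 0.04 ± 0.10 at 42 °C (adjusted p = 0.798).

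In the mitochondrial class 1 of 14 genes was called in this test at 40 °C and 0 at 42 °C, with medians of -0.04 and -0.01. The gene called was MSD1, which had 14.03 and 15.6 CPM in IDRm and 19.3 and 21.1 CPM in WT at 30 °C. At 40 °C it had 32.3 and 29.9 CPM in IDRm and 25.3 and 26.4 CPM in WT, and at 42 °C 24.5 and 24.99 CPM in IDRm and 32.1 and 29.2 CPM in WT. The order of the strains for MSD1 at 40 °C was the opposite of that at 30 and 42 °C. The MSD1 interaction at 40 °C was 0.69 ± 0.21 (adjusted p = 0.0219), and the call was lost under 5 of 18 other settings. At 42 °C edgeR and DESeq2 each called 0 of the 14, and 2 had an unadjusted p of at most 0.05, MSK1 and SLM5. The values ran from -0.63 for DIA4 to 0.66 for SLM5.

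Related genes were counted from lists of tRNA and translation genes. At 40 °C 39.9% of all tested genes were called lower and 37.4% higher in IDRm, and 39.5% lower and 36.1% higher in WT. Of 17 genes for tRNA maturation and export, 14 were lower and 1 was higher at 40 °C in IDRm, with a median of -1.27, and 14 were lower and 0 higher in WT, with a median of -1.33. TRM1, a tRNA methyltransferase gene, and TRZ1, the gene for the nuclease that trims tRNA 3′ ends, had the lowest changes, at -3.42 ± 0.12 and -3.44 ± 0.18 in IDRm and -3.39 ± 0.13 and -3.25 ± 0.19 in WT. Of 10 genes for mitochondrial charging and translation factors, 3 were higher and 3 lower in IDRm, and 1 was higher and 5 were lower in WT. In IDRm this is 30% in each direction, below the shares over all genes. In WT it is 10% higher and 50% lower. Changes in this list ran from -1.11 to 0.76 in IDRm, with a median of 0.005. In WT they ran from -1.27 to 0.44, with a median of -0.27. Toward the low end, MEF1, a mitochondrial elongation factor gene, fell by 1.11 ± 0.11 in IDRm and by 1.00 ± 0.11 in WT. Of the related synthetase genes, CRS1 for cysteine and the second glycyl gene GRS2 moved apart at 40 °C. CRS1 fell by 1.34 ± 0.08 in IDRm and by 1.34 ± 0.08 in WT, and GRS2 rose by 1.32 ± 0.17 in IDRm and by 0.81 ± 0.17 in WT. Of 4 genes listed for GCN4 control, 1 was higher and 1 lower at 40 °C in IDRm, with a median of 0.04. In WT 1 was higher and 2 were lower, with a median of -0.16. The higher gene was GCN4, which rose by 1.18 at 40 °C in each strain, with adjusted p of 1.44e-13 in IDRm and 9.72e-13 in WT. At 42 °C its change was -0.10 in IDRm and -0.04 in WT, and neither was called.

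The presence of a promoter motif was also set beside the changes within the cytosolic class, as a description without a test. The 9 genes with TGACTC had a median change at 40 °C of -0.82 in IDRm and -0.63 in WT, and the 12 genes without it had -0.88 in IDRm and -0.70 in WT. The 12 genes with AAAATTTT had medians of -0.65 in IDRm and -0.44 in WT, and the 9 genes without it had -1.26 in IDRm and -0.77 in WT. ALA1 and CDC60 are both among the 9 without AAAATTTT, as is DPS1.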

How the data were processed

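Gene counts of ribosome footprints were used as deposited by the authors, 1 whole-number count per gene and library. Per the labels' protocols, RNA was isolated with hot acid phenol from cultures harvested by filtration. Build R64 and the programs STAR 2.5.2b, Bowtie2 2.2.6, cutadapt 1.17 and bcl2fastq 2.17.1.14 are listed in the submitters' processing notes. What each program did, how reads were counted and whether strand was used is not stated there.

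The 35 genes, the related lists, the motifs and the comparisons were chosen with earlier results of these data known. All 12 libraries entered 1 fit in edgeR 4.0.16 (R 4.3.3) with TMM scaling, 1 mean per group, the default filter for expression (minimum count 10, minimum total 15), and robust quasi-likelihood F tests with 6 residual degrees of freedom. In all, 11 comparisons were tested, p-values were adjusted by Benjamini-Hochberg over 5719 genes, and calls needed an adjusted p no higher than 0.05. SE is the absolute log2 change divided by the square root of F. The p-values measure the spread between libraries, of which each group had 2.

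All 35 genes were named. Library values were given for the 3 highest and 3 lowest changes per class at 40 °C in WT, genes called against most of their class, up to 4 genes per strain or interaction comparison with the smallest p, and the pairs with the largest and smallest difference. FRS1 was added after its values were seen. Related lists were given by counts with up to 2 genes, and TRM1, TRZ1, MEF1, CRS1, GRS2 and GCN4 are named from them. Sequences came from the RefSeq R64 assembly, whose build matches that of the notes. The fits were tested on simulated data with known changes. Each result was recomputed with 6 other settings, among them DESeq2 1.42.0 and replicate blocks, and with each of 12 libraries left out. Protein sequences were not used here. Depth bounds the mitochondrial genes, with 17 to 264 counts each per library.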

Additional observations from a re-analysis of the deposited data

Results flagged for a closer look

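Some of the 35 genes were called in the interaction test of edgeR, the log2 change in IDRm minus that in WT. At 40 °C 22.9% of the 35 were called lower and 2.86% higher, against 8.52% and 3.81% over all tested genes. At 42 °C 20% were called lower and 0% higher, against 16.1% and 11.4% over all tested genes. The share called lower at 42 °C is thus near that over all genes. From 30 to 40 °C, 8 cytosolic genes had a negative difference: ALA1 at -0.64, CDC60 at -0.83, DED81 at -0.51, FRS2 at -0.60, GUS1 at -0.58, HTS1 at -0.36, KRS1 at -0.38 and YHR020W at -0.40. MSD1 was the mitochondrial gene with a difference at this step, at 0.69. From 30 to 42 °C, 7 cytosolic genes had a negative difference: ALA1 at -1.91, CDC60 at -0.87, DED81 at -0.46, GUS1 at -0.32, ILS1 at -0.39, VAS1 at -0.25 and YHR020W at -0.38. The call of VAS1 was lost under 13 of 18 other settings, that of HTS1 under 6 and that of MSD1 under 5. In each comparison IDRm and WT had 2 libraries per temperature, and both steps share the 30 °C libraries. For KRS1 the IDRm libraries were also above the WT libraries at 30 °C, with 1737 and 1708 CPM in IDRm and 1395 and 1355 CPM in WT. DED1 itself had an interaction of -0.32 ± 0.10 at 40 °C (adjusted p = 0.0225) and -0.10 ± 0.10 at 42 °C (adjusted p = 0.481). Its part in these results was not tested.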

How the results depend on the processing

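Of 385 results for a gene in a comparison, 192 were called, and 138 of these kept their call and direction under all 18 other settings. Scaling by library size alone reversed 4, DPS1 and ARC1 for 40 against 30 °C in IDRm (-0.029 and -0.23) and DED81 and ARC1 for 42 against 40 °C in WT (0.014 and 0.20), where ARC1 was not called under TMM scaling in either. A further 192 values that were not called under either setting changed sign. The replicate numbers could not be shown to pair the libraries, with correlations of -0.012 to 0.022 between same-numbered deviations, and the replicate block lost 3 calls and gained 0. The block left 0 mitochondrial calls for IDRm against WT at 30 °C, where the main count was 1, and so did the DESeq2 size factors, no filter, a fit of the compared groups and DESeq2. Other mitochondrial counts that moved were 9 for 40 against 30 °C in IDRm, with 8 under library size alone (2 higher and 6 lower), 5 under DESeq2 and 6 to 9 without 1 library (7, with 3 higher and 4 lower, without IDRm 30 °C replicate 1), and 10 for the same step in WT, with 5 under DESeq2 and 6 to 10 without 1 library. For 42 against 40 °C, IDRm had 6, with 3 under library size alone, 3 under DESeq2 and 0 to 6 without 1 library, and WT had 4, with 3 under library size alone (all higher), 2 with the compared groups, 1 under DESeq2 and 1 to 4 without 1 library. For IDRm against WT at 42 °C the count was 2, with 5 under library size alone, 1 under DESeq2 and 1 to 3 without 1 library. Mitochondrial interactions numbered 1 at 40 °C, with 0 under DESeq2, and 0 at 42 °C, each with 0 to 1 without 1 library. In the cytosolic class, IDRm against WT at 30 °C had 2, with 1 under no filter, 1 under DESeq2 and 1 to 3 without 1 library, and at 40 °C 11, with 7 to 12 without 1 library. Without 1 library, the cytosolic minus mitochondrial median ran from -0.94 to -0.70 and -0.29 to -0.17 in IDRm at 40 and 42 °C, from -0.80 to -0.54 and -0.23 to -0.10 in WT, and from 0.60 to 0.77 in IDRm and 0.47 to 0.63 in WT for 42 against 40 °C. The cause of these shifts was not tested. A fit without 1 library leaves a group with 1 sample, assumed to vary like the others. Counts of 17 to 264 limit the mitochondrial genes.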
